A study of Mus musculus with 10 samples.

Results

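Basement membranes are sheets of matrix that underlie epithelia and surround vessels and muscle. Their polymer is made of laminins, each a trimer of an alpha, a beta and a gamma chain, which nidogens and the heparan sulfate proteoglycan perlecan join to a network of type IV collagen. Fibronectin and vitronectin are adhesive glycoproteins recognised by integrins through an Arg-Gly-Asp site, and Sparc is a collagen-binding matrix protein. Migrating primordial germ cells cross such matrices in the embryo and adhere to laminin and fibronectin in culture.

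Transcripts of 10 genes of this matrix were examined: the laminin alpha chains *Lama1*, *Lama4* and *Lama5*, the gamma chain *Lamc1*, the nidogens *Nid1* and *Nid2*, perlecan (*Hspg2*), *Sparc*, fibronectin (*Fn1*) and vitronectin (*Vtn*). They were taken as every probe set whose only annotated symbol is 1 of these names, which gave 21 of the 45101 probe sets on the array, for 10 of 18193 genes with a probe set of their own. RNA of 5 sorted mouse populations was hybridised to Affymetrix arrays, 2 arrays each. Oct4-Gfp iPGCs (in vitro derived primordial germ cells of mixed genetic background) were sorted as bright for cKit and positive for a green reporter of *Oct4*, and V6.5 iPGCs (129xBL6 F1 background) as SSEA1+ and bright for cKit, both from day 6 embryoid bodies. Oct4-Gfp somatic cells were negative for the reporter and cKit, V6.5 somatic cells were negative for SSEA1 and cKit, and the undifferentiated ESCs were V6.5 cells (129xBL6 F1 background) positive for SSEA1 and cKit, from cultures kept on mouse embryonic fibroblasts. Line, genetic background and the sorting marker changed together, so they cannot be told apart, and no ESC array of the Oct4-Gfp line was analysed here. Nothing in the sources says that the arrays of a group came from separate differentiations, so the p-values measure the spread between these arrays only.

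The median signal per array lay between 53.7 and 91.6, and background, the level under which 95% of 44 olfactory receptor probe sets lay, between 12.6 and 25.4. Within groups the arrays correlated at 0.971 to 0.988. The 12 germ and pluripotency markers summed to 42280 to 43783 in Oct4-Gfp iPGCs, 42060 to 42937 in V6.5 iPGCs, 3236 to 3482 in Oct4-Gfp somatic cells, 2203 to 2444 in V6.5 somatic cells and 33714 to 34625 in ESCs, in the direction of the labels. The markers include *Kit* and *Pou5f1* (*Oct4*), and the cells were sorted by cKit and, in the Oct4-Gfp line, the *Oct4* reporter. Part of this order was thus set by the sort. The 3' to 5' signal ratio of *Gapdh*, which is higher where RNA or its amplification is less complete, was 2.02 and 2.37 in Oct4-Gfp iPGCs and 1.51 and 1.63 in V6.5 iPGCs. The ratio was 1.65 and 2.05 in Oct4-Gfp somatic cells, 1.74 and 1.73 in V6.5 somatic cells and 1.30 and 1.28 in ESCs.

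Levels are given as array signal, an arbitrary linear scale on which 2 different probe sets cannot be set against each other. Differences are log2 differences of the signal plus an offset of 14.8, with their SE, from a limma fit over 26368 probe sets, and a gene was called when its Benjamini-Hochberg adjusted p over those probe sets was under 0.05. The offset makes the difference of a dim gene smaller than its ratio of signals. Each gene was represented by its brightest probe set, and 9 of the 10 genes (16 of the 21 probe sets) passed the filter on low values. *Vtn* did not pass: its brighter probe set read 0.433 and 16.0 in Oct4-Gfp iPGCs and 12.2 and 31.5 in V6.5 iPGCs. The signal was 20.2 and 1.13 in Oct4-Gfp somatic cells, 14.0 and 19.3 in V6.5 somatic cells and 22.4 and 21.8 in ESCs. Only 1 iPGC array and both ESC arrays exceeded their own background, the dimmer probe set read at most 14.0, and *Vtn* was not detectable at a level that would allow a comparison. In a sorted bulk population, fewer cells that make a transcript and less transcript per cell cannot be told apart.

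**Figure D1:**
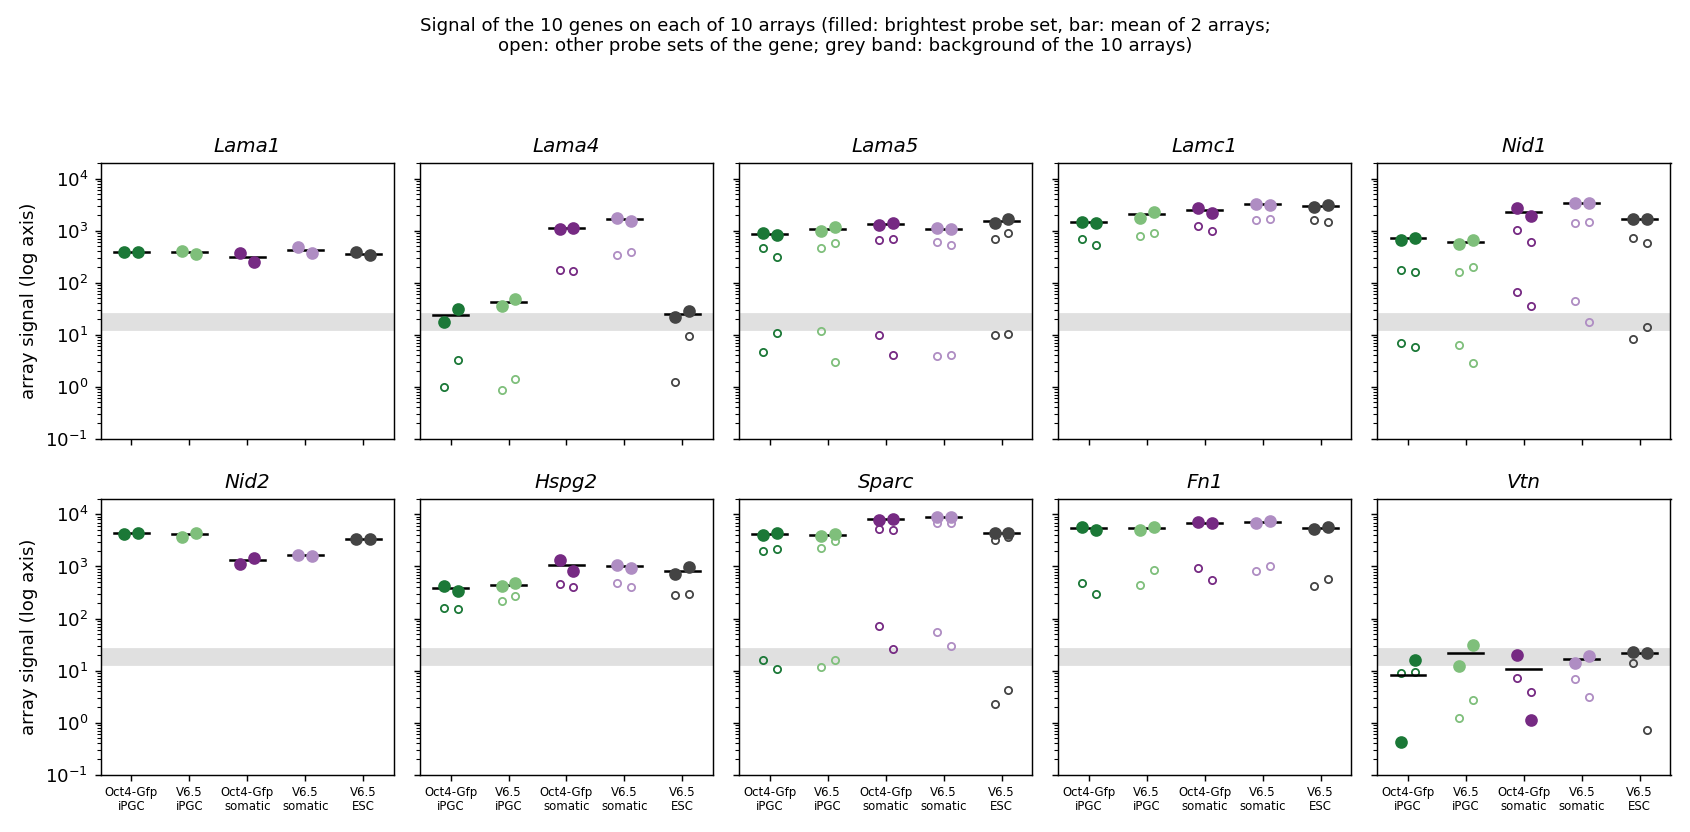
Array signal (log axis) of the 10 genes in the 5 populations, 2 arrays each. Filled points are the brightest probe set with a bar at the mean of its 2 arrays, open points are the other probe sets of the gene, and the grey band spans the background of the 10 arrays (12.6 to 25.4). *Lama4* stands between 1076 and 1766 on the somatic arrays and between 17.3 and 49.0 on all others, *Nid1* and *Nid2* are ordered in opposite ways between iPGCs and somatic cells, and *Vtn* stays within or near the background.

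The first question was how iPGCs differed from the somatic cells sorted from embryoid bodies of the same line. In V6.5 iPGCs, 1 of the 9 genes, *Nid2*, was higher than in V6.5 somatic cells and 6 were lower (*Lama4*, *Lamc1*, *Nid1*, *Hspg2*, *Sparc* and *Fn1*), where 51.3% of all 12187 genes tested were called in either direction, 27.2% higher and 24.1% lower. The median difference of the 9 genes was -0.65, against 0.08 over all genes. In Oct4-Gfp iPGCs, *Nid2* was again the 1 gene higher than in Oct4-Gfp somatic cells and 6 were lower (*Lama4*, *Lama5*, *Lamc1*, *Nid1*, *Hspg2* and *Sparc*), where 50.4% of all genes were called, 25.7% higher and 24.7% lower. Their median difference was -0.73, against 0.04 over all genes. These 2 comparisons share no array.

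The second question was how each day 6 population differed from the undifferentiated ESCs, which could be asked within a line only for V6.5. None of the 9 genes was higher and 3 were lower in V6.5 iPGCs than in ESCs (*Nid1*, *Hspg2* and *Lama5*), where 30.1% of all genes were called, 17.3% higher and 12.8% lower. The share of the 9 genes called in either direction was thus near that of all genes, and of the 3 calls only that of *Nid1* held in every setting in which it was recomputed with an adjusted p. In V6.5 somatic cells 4 genes were higher than in ESCs (*Lama4*, *Nid1*, *Sparc* and *Fn1*) and 2 were lower (*Nid2* and *Lama5*), where 61.9% of all genes were called, 30.2% higher and 31.7% lower. The median difference of the 9 genes was -0.10 between V6.5 iPGCs and ESCs, against 0.05 over all genes, and 0.27 between V6.5 somatic cells and ESCs, against -0.04 over all genes. The ESC arrays serve in both comparisons, and the V6.5 iPGC and somatic arrays serve in each comparison of that line.

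**Figure D2:**
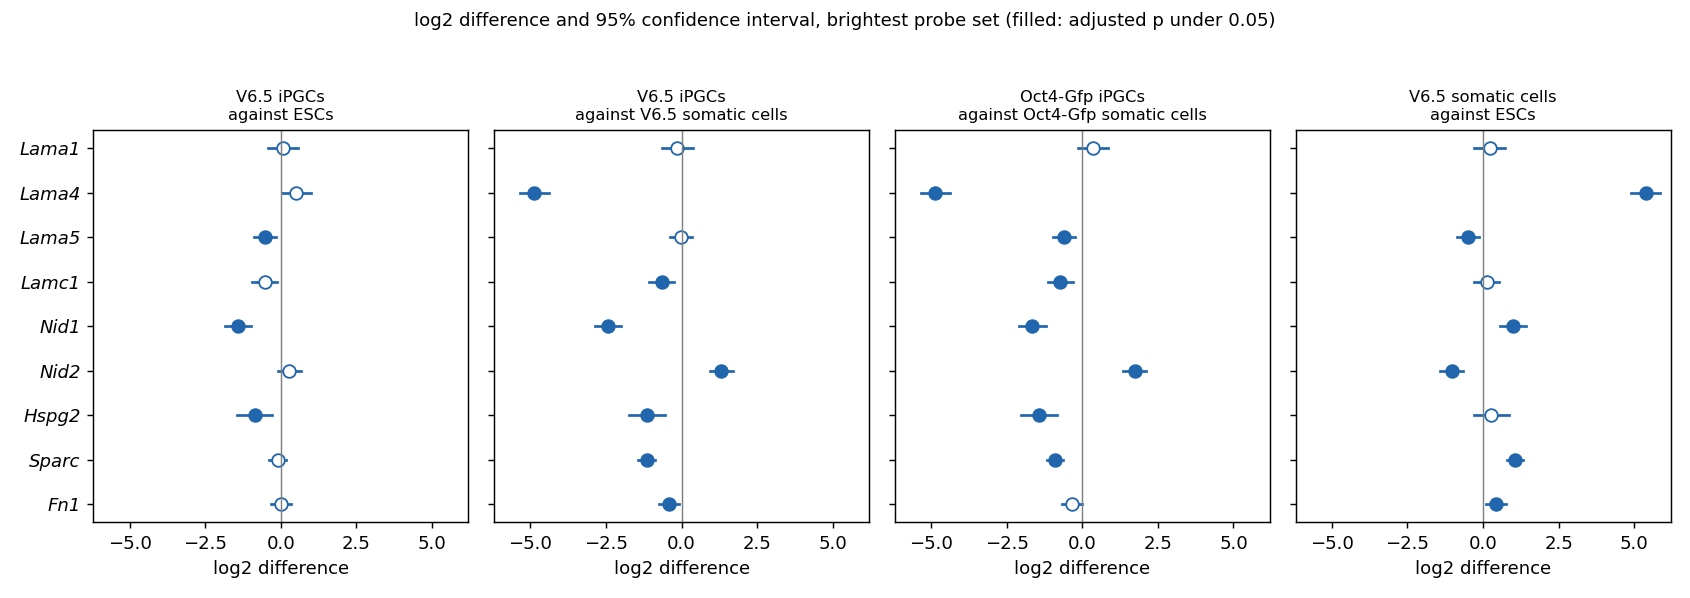
The log2 difference of the 9 tested genes with its 95% confidence interval in the 4 comparisons of cell types, the group named first over the group named second (filled: adjusted p under 0.05). *Lama4* reaches -4.87 in both comparisons of iPGCs with somatic cells and 5.37 between V6.5 somatic cells and ESCs, *Nid2* is the only gene to the right of zero with a filled point in the comparisons of iPGCs with somatic cells, and every interval of *Lama1* includes zero.

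Among the alpha chains, *Lama4*, a chain of laminins around vessels, muscle and fat cells, had the widest range over the populations. Its brightest probe set read 17.3 and 30.9 in Oct4-Gfp iPGCs and 35.2 and 49.0 in V6.5 iPGCs, against 1076 and 1136 in Oct4-Gfp somatic cells, 1766 and 1516 in V6.5 somatic cells and 22.3 and 28.1 in ESCs. The somatic arrays lay far above all 6 others, which were close to background, and 1 Oct4-Gfp iPGC array was within it. The log2 difference was -4.87 ± 0.21 (SE, n = 2 arrays per group) in V6.5 iPGCs against V6.5 somatic cells (limma, adjusted p = 3.48e-06), -4.87 ± 0.21 in Oct4-Gfp iPGCs against Oct4-Gfp somatic cells (adjusted p = 3.79e-06) and 5.37 ± 0.21 in V6.5 somatic cells against ESCs (adjusted p = 1.62e-06). V6.5 iPGCs and ESCs did not differ beyond the test (0.50 ± 0.21, adjusted p = 0.107). A dimmer *Lama4* probe set read at most 3.21 in iPGCs of either line and 9.64 in ESCs, not above background on any of these arrays, against 171 to 392 in somatic cells. By this probe set *Lama4* was at least 19.7-fold lower in V6.5 iPGCs than in V6.5 somatic cells, at least 10.1-fold lower in Oct4-Gfp iPGCs than in Oct4-Gfp somatic cells, and at least 23.9-fold higher in V6.5 somatic cells than in ESCs, each measured against the background level of the dim arrays.

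*Lama1*, the alpha chain of the first embryonic basement membranes, had signals of 397 and 394 in Oct4-Gfp iPGCs and 410 and 357 in V6.5 iPGCs, against 379 and 246 in Oct4-Gfp somatic cells, 478 and 371 in V6.5 somatic cells and 381 and 341 in ESCs. The groups overlapped except that both Oct4-Gfp iPGC arrays lay above both Oct4-Gfp somatic arrays and both ESC arrays, and no pair of groups differed by the test. The 95% interval of the log2 difference ran from -0.42 to 0.58 in V6.5 iPGCs against ESCs, from -0.64 to 0.36 in V6.5 iPGCs against V6.5 somatic cells, from -0.14 to 0.86 in Oct4-Gfp iPGCs against Oct4-Gfp somatic cells and from -0.28 to 0.72 in V6.5 somatic cells against ESCs. In the Oct4-Gfp line *Lama1* passed the threshold, higher in iPGCs, with median centring of each array (0.81, adjusted p = 0.0213), with quantile normalization (0.61, adjusted p = 0.042) and without Oct4-Gfp somatic array 1 (0.65, adjusted p = 0.0439).

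*Lama5*, the alpha chain of most epithelial basement membranes, read 920 and 812 in Oct4-Gfp iPGCs and 978 and 1180 in V6.5 iPGCs. The signal was 1266 and 1407 in Oct4-Gfp somatic cells, 1117 and 1062 in V6.5 somatic cells and 1417 and 1676 in ESCs. Both ESC arrays were above all other arrays, and both Oct4-Gfp iPGC arrays below all others. The log2 difference was -0.62 ± 0.16 in Oct4-Gfp iPGCs against Oct4-Gfp somatic cells (adjusted p = 0.0131), whereas V6.5 iPGCs and V6.5 somatic cells overlapped (-0.02 ± 0.16, adjusted p = 0.933). Against ESCs the difference was -0.51 ± 0.16 in V6.5 iPGCs (adjusted p = 0.0444) and -0.50 ± 0.16 in V6.5 somatic cells (adjusted p = 0.0268). The call in V6.5 iPGCs against ESCs was lost when any array other than V6.5 iPGC array 2 was left out (log2 differences of -0.63 to -0.38, adjusted p between 0.0536 and 0.221), and that in Oct4-Gfp iPGCs without Oct4-Gfp iPGC array 2 (-0.53, adjusted p = 0.0811) or Oct4-Gfp somatic array 2 (-0.54, adjusted p = 0.063). The call in V6.5 somatic cells against ESCs was lost without ESC array 2 (-0.38, adjusted p = 0.156) and without V6.5 somatic array 1 or 2 (-0.53 and -0.46, adjusted p = 0.0782 and 0.113). A second *Lama5* probe set was called in Oct4-Gfp iPGCs against Oct4-Gfp somatic cells (-0.82 ± 0.24, adjusted p = 0.0228) but neither in V6.5 iPGCs against ESCs (-0.60 ± 0.24, adjusted p = 0.0939) nor in V6.5 somatic cells against ESCs (-0.49 ± 0.24, adjusted p = 0.11). A further one was not above background on any array (2.95 to 11.6).

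*Lamc1*, the gamma chain shared by most laminins, read 1483 and 1433 in Oct4-Gfp iPGCs and 1778 and 2327 in V6.5 iPGCs. The signal was 2745 and 2137 in Oct4-Gfp somatic cells, 3318 and 3102 in V6.5 somatic cells and 2790 and 3109 in ESCs. Both iPGC groups lay below the somatic arrays of their own line and below the ESC arrays. The log2 difference was -0.65 ± 0.18 in V6.5 iPGCs against V6.5 somatic cells (adjusted p = 0.019) and -0.73 ± 0.18 in Oct4-Gfp iPGCs against Oct4-Gfp somatic cells (adjusted p = 0.0119). Against ESCs it was -0.53 ± 0.18 in V6.5 iPGCs (adjusted p = 0.0622) and 0.12 ± 0.18 in V6.5 somatic cells (adjusted p = 0.586). The other *Lamc1* probe set was called lower in V6.5 iPGCs than in ESCs (-0.87 ± 0.18, adjusted p = 0.0115), at 776 and 882 in V6.5 iPGCs against 1602 and 1461 in ESCs. The brighter one was called there with limma-trend (-0.53, adjusted p = 0.0164) and with median centring (-0.69, adjusted p = 0.0349). Against somatic cells the other probe set was also called lower in iPGCs of both lines. Its difference was -0.96 ± 0.18 in V6.5 (adjusted p = 0.00322) and -0.84 ± 0.18 in Oct4-Gfp (adjusted p = 0.00604). The call of the brighter probe set in the V6.5 line was lost without V6.5 iPGC array 1 (-0.46, adjusted p = 0.0965), V6.5 somatic array 1 (-0.61, adjusted p = 0.0959) or V6.5 somatic array 2 (-0.70, adjusted p = 0.06), and that in the Oct4-Gfp line without Oct4-Gfp iPGC array 2 (-0.70, adjusted p = 0.0599) or Oct4-Gfp somatic array 1 (-0.55, adjusted p = 0.0757).

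The nidogens, which bind both the laminin gamma chain and type IV collagen, were ordered in opposite ways. *Nid1* read 676 and 738 in Oct4-Gfp iPGCs and 557 and 675 in V6.5 iPGCs. The signal was 2693 and 1879 in Oct4-Gfp somatic cells, 3323 and 3384 in V6.5 somatic cells and 1704 and 1648 in ESCs. The iPGC, ESC and somatic arrays formed 3 ranges that did not overlap, lowest in iPGCs and highest in somatic cells. The log2 difference of *Nid1* was -2.42 ± 0.19 in V6.5 iPGCs against V6.5 somatic cells (5.36-fold lower, adjusted p = 3.93e-05), -1.65 ± 0.19 in Oct4-Gfp iPGCs against Oct4-Gfp somatic cells (3.14-fold lower, adjusted p = 0.000265), -1.43 ± 0.19 in V6.5 iPGCs against ESCs (2.69-fold lower, adjusted p = 0.00222) and 0.99 ± 0.19 in V6.5 somatic cells against ESCs (adjusted p = 0.00257). The next brightest *Nid1* probe set gave -2.88, -2.14, -1.75 and 1.12 in the same comparisons, all of them called, and a further one read at most 6.81 in iPGCs and 13.9 in ESCs, where it was within background, against 17.7 to 65.0 in somatic cells. With each array left out in turn the difference between V6.5 iPGCs and ESCs lay between -1.56 and -1.29.

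*Nid2* read 4169 and 4484 in Oct4-Gfp iPGCs and 3750 and 4496 in V6.5 iPGCs. The signal was 1135 and 1478 in Oct4-Gfp somatic cells, 1687 and 1592 in V6.5 somatic cells and 3439 and 3310 in ESCs. All 4 iPGC arrays lay above both ESC arrays, and these above all 4 somatic arrays. The log2 difference of *Nid2* was 1.32 ± 0.17 in V6.5 iPGCs against V6.5 somatic cells (2.49-fold higher, adjusted p = 0.000425), 1.73 ± 0.17 in Oct4-Gfp iPGCs against Oct4-Gfp somatic cells (3.31-fold higher, adjusted p = 0.000111) and -1.03 ± 0.17 in V6.5 somatic cells against ESCs (2.05-fold lower, adjusted p = 0.00109). V6.5 iPGCs and ESCs were not told apart by the test (0.28 ± 0.17, 95% interval -0.10 to 0.66, adjusted p = 0.234). *Nid2* is measured by 1 probe set, so no other probe set bears on it.

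*Hspg2*, perlecan, read 426 and 334 in Oct4-Gfp iPGCs and 418 and 474 in V6.5 iPGCs. The signal was 1308 and 831 in Oct4-Gfp somatic cells, 1090 and 918 in V6.5 somatic cells and 705 and 965 in ESCs. All 4 iPGC arrays were below the 6 others. The log2 difference was -1.14 ± 0.25 in V6.5 iPGCs against V6.5 somatic cells (2.21-fold lower, adjusted p = 0.00736), -1.43 ± 0.25 in Oct4-Gfp iPGCs against Oct4-Gfp somatic cells (2.69-fold lower, adjusted p = 0.00247) and -0.87 ± 0.25 in V6.5 iPGCs against ESCs (adjusted p = 0.0387). The second *Hspg2* probe set gave -0.78 and -1.41 against the somatic cells of the V6.5 and Oct4-Gfp lines, both called, but only -0.21 ± 0.16 in V6.5 iPGCs against ESCs (adjusted p = 0.355), at 222 and 275 in V6.5 iPGCs against 279 and 297 in ESCs. It was called higher in V6.5 somatic cells than in ESCs (0.58 ± 0.16, adjusted p = 0.0142), where the brighter one was not (0.27 ± 0.25, adjusted p = 0.385). The call of *Hspg2* in V6.5 iPGCs against ESCs was lost when either array of the ESCs, the V6.5 iPGCs or the V6.5 somatic cells was left out (-1.09 to -0.65, adjusted p between 0.0562 and 0.2), and that against V6.5 somatic cells without V6.5 somatic array 1 (-1.02, adjusted p = 0.051).

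Promoter sequence was at hand for 5 of the 10 genes (*Hspg2*, *Lama5*, *Nid1*, *Sparc* and *Vtn*). Those of the 3 genes called lower in V6.5 iPGCs than in ESCs are shown first, and *Sparc*, which was lower in iPGCs than in somatic cells of both lines but not called against ESCs, after them. Each lies within the 250 bases before a RefSeq transcription start (GRCm38.p6), read 5' to 3' on the gene's strand, with capitals at every GGGCGG (the GC box) or CCAAT on either strand. The last 52 bases of the *Hspg2* window and the last 45 of the *Lama5* window belong to another transcript of the same gene and are not printed.
Nid1, chr13:13437352-13437601, plus strand: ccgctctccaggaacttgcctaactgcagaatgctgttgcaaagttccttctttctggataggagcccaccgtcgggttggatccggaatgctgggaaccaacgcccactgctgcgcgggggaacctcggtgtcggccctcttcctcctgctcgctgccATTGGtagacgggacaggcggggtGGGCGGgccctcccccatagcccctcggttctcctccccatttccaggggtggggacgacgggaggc
Hspg2, chr4:137468553-137468750, plus strand: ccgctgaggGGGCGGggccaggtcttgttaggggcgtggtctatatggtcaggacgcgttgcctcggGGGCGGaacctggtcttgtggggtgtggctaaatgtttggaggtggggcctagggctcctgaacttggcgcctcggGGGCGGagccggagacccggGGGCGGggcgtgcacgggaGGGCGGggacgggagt
Lama5, chr2:180225905-180226109, minus strand: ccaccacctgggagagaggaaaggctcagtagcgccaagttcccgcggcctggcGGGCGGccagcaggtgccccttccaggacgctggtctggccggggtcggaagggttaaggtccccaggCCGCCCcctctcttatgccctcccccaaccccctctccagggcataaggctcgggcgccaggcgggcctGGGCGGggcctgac
Sparc, chr11:55420081-55420330, minus strand: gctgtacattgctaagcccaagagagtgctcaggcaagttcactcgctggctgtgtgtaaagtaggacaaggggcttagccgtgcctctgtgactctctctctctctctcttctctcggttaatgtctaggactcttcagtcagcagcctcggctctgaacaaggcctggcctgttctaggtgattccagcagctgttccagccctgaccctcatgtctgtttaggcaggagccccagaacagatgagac
The whole windows of *Hspg2* and *Lama5* held GGGCGG 5 and 4 times (5 and 3 in the printed part), that of *Nid1* held it 1 time beside 1 CCAAT, and that of *Sparc* held neither, while 32.7% of all 32851 such windows held GGGCGG and 33.8% held CCAAT. GC content was 70.0% for *Hspg2*, 72.4% for *Lama5*, 64.4% for *Nid1* and 54.0% for *Sparc*, against a median of 52.4% over all windows. TATAAA (12.4% of all windows), AGATAA (9.99%) and ACAAAG (16.5%) had no match in these 4 windows on either strand. The *Vtn* window held TATAAA on both strands at overlapping positions. No motif overlapped another in the 4 windows printed.

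*Sparc* read 4083 and 4485 in Oct4-Gfp iPGCs and 3936 and 4220 in V6.5 iPGCs. The signal was 7911 and 8126 in Oct4-Gfp somatic cells, 9126 and 9118 in V6.5 somatic cells and 4337 and 4419 in ESCs. The 4 somatic arrays lay above all others, and the Oct4-Gfp iPGC arrays stood on either side of the ESC arrays. The log2 difference was -1.16 ± 0.12 in V6.5 iPGCs against V6.5 somatic cells (2.23-fold lower, adjusted p = 0.000168), -0.90 ± 0.12 in Oct4-Gfp iPGCs against Oct4-Gfp somatic cells (1.87-fold lower, adjusted p = 0.000614), 1.06 ± 0.12 in V6.5 somatic cells against ESCs (adjusted p = 0.000195) and -0.10 ± 0.12 in V6.5 iPGCs against ESCs (adjusted p = 0.556). A second probe set of *Sparc* read 2005 and 2134 in Oct4-Gfp iPGCs, 2245 and 3020 in V6.5 iPGCs and 3288 and 3706 in ESCs, with no overlap between iPGCs and ESCs. By it the difference from ESCs was called in Oct4-Gfp iPGCs (-0.75 ± 0.17, adjusted p = 0.0088), a comparison across lines in which the brighter one gave -0.03 ± 0.12, and not in V6.5 iPGCs (-0.42 ± 0.17, adjusted p = 0.0942). Both probe sets were called, in the same direction, in each of the 3 comparisons above that involve somatic cells. A further one, which did not pass the filter, was above background on the somatic arrays only (25.7 to 73.4).

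*Fn1*, fibronectin, read 5862 and 5123 in Oct4-Gfp iPGCs and 5026 and 5853 in V6.5 iPGCs. The signal was 7085 and 6728 in Oct4-Gfp somatic cells, 6983 and 7561 in V6.5 somatic cells and 5230 and 5671 in ESCs. The 4 somatic arrays were above the 6 others, which overlapped. The log2 difference was -0.42 ± 0.14 in V6.5 iPGCs against V6.5 somatic cells (1.34-fold lower, adjusted p = 0.042), -0.33 ± 0.14 in Oct4-Gfp iPGCs against Oct4-Gfp somatic cells (adjusted p = 0.089) and 0.42 ± 0.14 in V6.5 somatic cells against ESCs (1.33-fold higher, adjusted p = 0.0363). V6.5 iPGCs and ESCs gave -0.01 ± 0.14, with a 95% interval of -0.33 to 0.32. A second *Fn1* probe set gave neither call. It read 434 and 872 in V6.5 iPGCs, 837 and 1029 in V6.5 somatic cells and 430 and 566 in ESCs, with iPGC and somatic arrays that overlapped (-0.58 ± 0.39, adjusted p = 0.266) and somatic cells above ESCs by less than the test required (0.89 ± 0.39, adjusted p = 0.0838). The call in V6.5 iPGCs against V6.5 somatic cells was lost when any array other than V6.5 iPGC array 2 was left out (-0.48 to -0.31, adjusted p between 0.0503 and 0.183), and that in V6.5 somatic cells against ESCs without any 1 of the 4 arrays compared (0.36 to 0.47, adjusted p between 0.0778 and 0.16).

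The order of the 5 group means separated neighbours by the test in 5 of the 9 genes, once in each. For *Nid1* the step lay between ESCs and Oct4-Gfp iPGCs (adjusted p = 0.00204), for *Nid2* between ESCs and V6.5 somatic cells (adjusted p = 0.00109), for *Sparc* between Oct4-Gfp somatic cells and ESCs (adjusted p = 0.000555) and for *Hspg2* between ESCs and V6.5 iPGCs (adjusted p = 0.0387). For *Lama4* it lay between Oct4-Gfp somatic cells and V6.5 iPGCs (adjusted p = 7.27e-06). ESCs thus stood on the iPGC side of the step in *Lama4*, *Nid2* and *Sparc*, and on the somatic side in *Nid1* and *Hspg2*. For *Nid1* this does not place ESCs with somatic cells, since V6.5 somatic cells were called above ESCs, and the step of *Hspg2* is the call that its second probe set did not give and that was lost without single arrays. No neighbours in the order of *Lama1*, *Lama5*, *Lamc1* or *Fn1* differed by the test.

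The third question was whether the 2 lines gave the same picture. None of the 9 genes was called between Oct4-Gfp iPGCs and V6.5 iPGCs, where 0.0% of all genes were called, none between Oct4-Gfp somatic cells and V6.5 somatic cells, where 0.0738% were (0.0328% higher and 0.041% lower), and none in the difference between lines of the contrast of iPGCs with somatic cells, where 0.00821% were (limma). The count was also 0 in every alternative setting run. At an unadjusted p under 0.05 there were 2 genes in each of these comparisons, counted by the brightest probe sets. *Lama4* and *Lamc1* gave -0.56 ± 0.21 and -0.48 ± 0.18 between the iPGC groups, and *Lama4* and *Nid1* gave -0.56 ± 0.21 and -0.57 ± 0.19 between the somatic groups. In the difference between lines, *Nid1* gave 0.77 (95% interval 0.16 to 1.39, adjusted p = 0.419) and *Lama5* gave -0.60 (95% interval -1.11 to -0.09, adjusted p = 0.436). For *Lama4* the 95% interval of the difference between lines ran from -0.68 to 0.68. The *Nid1* difference stood beside somatic signals of 2693 and 1879 in the Oct4-Gfp line and 3323 and 3384 in the V6.5 line. Second probe sets of other genes also had an unadjusted p under 0.05, without being called. Between the iPGC groups these were *Hspg2* (-0.62 ± 0.16) and *Lamc1* (-0.42 ± 0.18). Between the somatic groups they were *Nid1* (-0.85 ± 0.24), *Lamc1* (-0.55 ± 0.18) and *Sparc* (-0.41 ± 0.17). In the difference between lines it was *Hspg2* (-0.63, 95% interval -1.14 to -0.12).

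**Figure D3:**
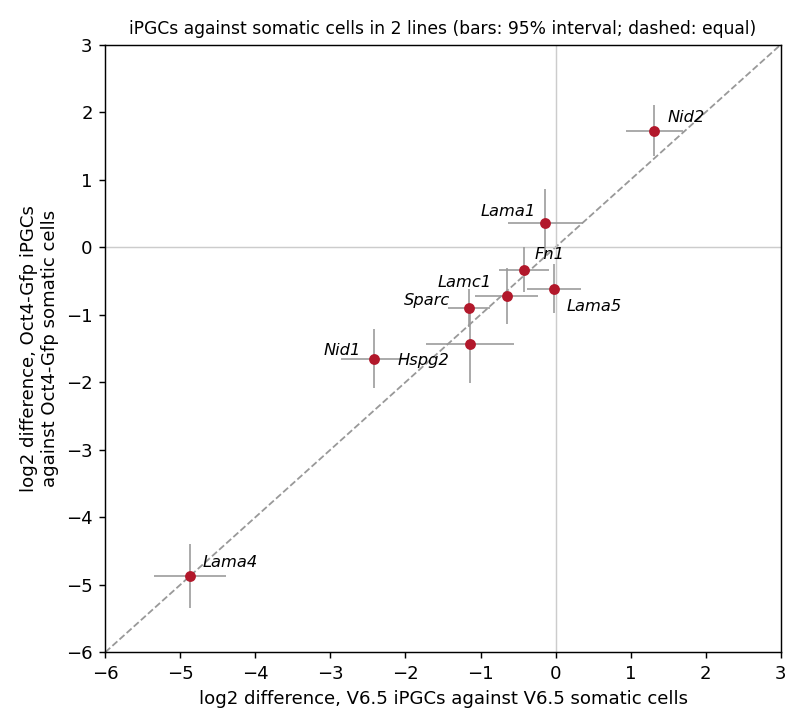
The log2 difference of iPGCs against somatic cells for 9 genes, each by its brightest probe set only. V6.5 is on the horizontal axis and Oct4-Gfp on the vertical axis, with 95% confidence intervals and a dashed line of equality. *Lama4* lies at -4.87 on both axes and *Nid2* at 1.32 and 1.73, while *Nid1* (-2.42 and -1.65) and *Lama5* (-0.02 and -0.62) lie farthest to either side of the line.

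Scaling bears on the Oct4-Gfp comparison and on some V6.5 calls. Each array was centred on its median. In Oct4-Gfp iPGCs against Oct4-Gfp somatic cells this moved the median of all probe sets tested by 0.45, from -0.11 to 0.34. It moved that median by -0.16 in V6.5 iPGCs against ESCs and by -0.14 in V6.5 somatic cells against ESCs. Quantile normalization moved it by 0.14 in the Oct4-Gfp comparison, to 0.03, and there all 9 genes were called. On the centred scale the differences of *Nid2* (2.18), *Nid1* (-1.20), *Hspg2* (-0.98) and *Lama4* (-4.42) in the Oct4-Gfp line were still called, and those of *Sparc* (-0.45, adjusted p = 0.11), *Lamc1* (-0.28, adjusted p = 0.285) and *Lama5* (-0.17, adjusted p = 0.535) were not. In the V6.5 line *Fn1* lost its call on that scale in iPGCs against somatic cells (-0.44, adjusted p = 0.117). It also lost that in somatic cells against ESCs (0.28, adjusted p = 0.288). *Lamc1* passed the threshold in V6.5 iPGCs against ESCs (-0.69, adjusted p = 0.0349). The *Gapdh* ratio also differed between the groups. With it as a covariate *Nid1* stayed called in V6.5 iPGCs against ESCs (-1.25, adjusted p = 0.0387), while *Hspg2* (-0.41, adjusted p = 0.378) and *Lama5* (-0.56, adjusted p = 0.167) did not. The covariate also ended the calls of *Lama5* (-0.66, adjusted p = 0.0645) and *Lamc1* (-0.59, adjusted p = 0.119) in the Oct4-Gfp line and of *Fn1* in V6.5 iPGCs against V6.5 somatic cells (-0.46, adjusted p = 0.062). In V6.5 somatic cells against ESCs it ended those of *Lama5* (-0.57, adjusted p = 0.186) and *Fn1* (0.54, adjusted p = 0.165).

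Summed markers of other cell types also differed between the populations, and bright probe sets weigh most in such sums. Counts of markers called are read against the shares over all genes. These were 27.2% higher and 24.1% lower in V6.5 iPGCs against V6.5 somatic cells, and 25.7% and 24.7% in the Oct4-Gfp line. Against ESCs they were 17.3% higher and 12.8% lower in V6.5 iPGCs, and 30.2% and 31.7% in V6.5 somatic cells. The 18 fibroblast markers summed to 911 to 1262 in Oct4-Gfp iPGCs, 1477 to 1601 in V6.5 iPGCs, 16608 to 20179 in Oct4-Gfp somatic cells, 25812 to 25904 in V6.5 somatic cells and 1901 to 2179 in ESCs. Of the 15 tested, 14 were lower in iPGCs than in somatic cells in each line, and 2 were higher and 5 lower in V6.5 iPGCs than in ESCs. In V6.5 somatic cells 12 of these 15 were higher and 2 lower than in ESCs. *Lum*, *Dcn*, *Lox*, *Fap* and *Postn* were within background in iPGCs of both lines, and *Lox* and *Fap* in V6.5 somatic cells. *Lum*, *Dcn*, *Lox* and *Fap* were so in Oct4-Gfp somatic cells, and *Fap* and *Twist2* in ESCs. *Lox* read 127 and 199 in ESCs, which were kept on fibroblasts. *Thy1* (mean 435) and *S100a4* (139) also had their highest means in ESCs. The 13 measured mesoderm and heart markers summed to 869 to 1428 in Oct4-Gfp iPGCs and 1643 to 1770 in V6.5 iPGCs, against 25911 to 28790 in Oct4-Gfp somatic cells, 31868 to 32230 in V6.5 somatic cells and 1043 to 1099 in ESCs, and *Nkx2-5* was within background in all 5 groups. The 16 markers of extraembryonic endoderm, a cell type that makes *Lama1*, *Lamc1*, *Nid1* and *Sparc* in quantity, summed to 512 to 683 in Oct4-Gfp iPGCs and 726 to 978 in V6.5 iPGCs, against 5964 to 6102 in Oct4-Gfp somatic cells, 6836 to 7029 in V6.5 somatic cells and 377 to 516 in ESCs. In V6.5 somatic cells *Gata6* (mean 2222), *Dab2* (1752) and *Gata4* (900) weighed most in that sum. *Afp* (17.8), *Hnf4a* (22.5) and *Foxa2* (31.2) were among those that added little. *Lama1* itself was not called between any 2 groups. Of the 12 endoderm markers tested, 2 were higher and 7 lower in V6.5 iPGCs than in V6.5 somatic cells. In the Oct4-Gfp line 2 were higher and 10 lower. *Amn* and *Thbd* were the higher ones, with V6.5 means of 77.7 and 86.5 in iPGCs against 27.3 and 23.6 in somatic cells. *Sox17*, *Ttr* and *Apob* were within background in ESCs, and *Sox7* and *Afp* in V6.5 iPGCs. *Foxa2* and *Apob* were so in Oct4-Gfp iPGCs, and *Afp* and *Thbd* in Oct4-Gfp somatic cells. The 10 endothelial markers summed to 833 to 907 in Oct4-Gfp iPGCs and 1073 to 1273 in V6.5 iPGCs, against 2313 to 2703 in Oct4-Gfp somatic cells, 2518 to 3370 in V6.5 somatic cells and 947 to 985 in ESCs, and *Emcn* was within background in iPGCs and somatic cells of both lines. The endothelial markers did not move together: of 7 tested, 3 were higher and 3 lower in V6.5 iPGCs than in V6.5 somatic cells (median difference 0.40), and 1 was higher and 3 lower in the Oct4-Gfp line (-0.35). *Kdr*, with a mean of 72.1 in V6.5 iPGCs against 1356 in V6.5 somatic cells, was among the lower, and *Pecam1*, with 545 against 246, among the higher. The part of these cell types in the differences of the 10 genes was not tested.

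Further genes of the same matrix were counted from 6 lists, 63 of whose 78 genes were tested. *Fbln2*, *Mmp2* and *Postn* of these also stand in the fibroblast list, *Plat* in the endoderm list and *Itgb3* in the germ cell list. The shares over all genes, against which these counts are read, were 27.2% higher and 24.1% lower in V6.5 iPGCs against V6.5 somatic cells, 25.7% higher and 24.7% lower in Oct4-Gfp iPGCs against Oct4-Gfp somatic cells, and 17.3% higher and 12.8% lower in V6.5 iPGCs against ESCs. All 4 type IV collagen genes tested were lower in iPGCs than in somatic cells of both lines and higher in V6.5 somatic cells than in ESCs. *Col4a1* read 168 and 180 in Oct4-Gfp iPGCs and 266 and 262 in V6.5 iPGCs. The signal was 4656 and 2748 in Oct4-Gfp somatic cells, 3912 and 4234 in V6.5 somatic cells and 307 and 354 in ESCs, so that the somatic arrays stood apart from the rest. Its log2 difference between iPGCs and somatic cells was -3.87 for V6.5 and -4.25 for Oct4-Gfp, and that of *Col4a2* was -4.18 for V6.5 and -4.52 for Oct4-Gfp. In V6.5 iPGCs against ESCs, *Col4a5* was higher (1.88, adjusted p = 0.00339) and *Col4a6* at least 2.63-fold higher than ESC arrays that were within background (adjusted p = 0.0018), while *Col4a1* and *Col4a2* were not called.

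Among 4 other laminin chains tested, 1 was higher and 3 were lower in V6.5 iPGCs than in V6.5 somatic cells, and 1 was higher and 2 were lower in Oct4-Gfp iPGCs than in Oct4-Gfp somatic cells. The higher one was *Lama3*, an alpha chain of epidermal laminin, with signals of 131 and 109 in Oct4-Gfp iPGCs, 143 and 78.2 in V6.5 iPGCs and 120 and 118 in ESCs, against 13.2 and 2.72 in Oct4-Gfp somatic cells and 12.1 and 17.0 in V6.5 somatic cells. It was within background in the somatic cells of both lines, and at least 5.81-fold higher in V6.5 iPGCs and at least 5.27-fold higher in Oct4-Gfp iPGCs. *Lamb1*, the beta chain that joins *Lama1* and *Lamc1* in the classical laminin, was lower in iPGCs than in somatic cells (-0.90 in V6.5, adjusted p = 0.00141, and -0.54 in Oct4-Gfp, adjusted p = 0.0159) and not called in V6.5 iPGCs against ESCs (-0.13, adjusted p = 0.516). *Lamb2*, the later beta chain of muscle and kidney, was lower in iPGCs than in somatic cells (-1.36 and -1.51 in V6.5 and Oct4-Gfp) and higher in V6.5 iPGCs than in ESCs (0.63, adjusted p = 0.0306).

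Of 15 other basement membrane genes, 5 were higher and 8 lower in V6.5 iPGCs than in V6.5 somatic cells, and 4 were higher and 8 lower in the Oct4-Gfp line. *Ntn1*, a laminin-related guidance protein, was among the higher ones in both lines (3.69 in V6.5 and 3.92 in Oct4-Gfp), and *Fbln2*, a fibulin that binds nidogen, among the lower (-3.90 and -4.26). *Npnt*, a ligand of the integrin alpha 8 beta 1, was higher in V6.5 iPGCs than in ESCs (1.42, adjusted p = 0.00146). Of 9 genes of the fibronectin matrix, 1 was higher and 8 were lower in V6.5 iPGCs than in V6.5 somatic cells, and 1 was higher and 7 were lower in the Oct4-Gfp line. The higher one in both was *Ccn2*, a matricellular protein (1.35 and 1.24), which was also higher in V6.5 iPGCs than in ESCs (2.45, adjusted p = 0.00268). *Tnc*, tenascin C, was at least 6.11-fold lower in V6.5 iPGCs, where it was within background, than in ESCs (adjusted p = 0.013).

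Of 13 receptor genes, 2 were higher and 7 lower in V6.5 iPGCs than in V6.5 somatic cells, and 4 were higher and 7 lower in the Oct4-Gfp line. *Itga6*, the alpha chain of a laminin-binding integrin, read 3155 and 3352 in Oct4-Gfp iPGCs and 3099 and 2730 in V6.5 iPGCs. The signal was 713 and 744 in Oct4-Gfp somatic cells, 284 and 314 in V6.5 somatic cells and 2876 and 2338 in ESCs. All 4 iPGC arrays lay above all 4 somatic arrays (3.22 in V6.5, adjusted p = 4.75e-06, and 2.14 in Oct4-Gfp, adjusted p = 2.6e-05). *Itga5*, the alpha chain of the fibronectin receptor, was lower in iPGCs than in somatic cells of both lines (-2.43 and -2.46 in V6.5 and Oct4-Gfp) and lower in V6.5 iPGCs than in ESCs (-1.18, adjusted p = 0.0019). *Itgb3*, the beta chain that pairs with the alpha V chain to bind vitronectin, was higher in V6.5 iPGCs than in ESCs (2.84, adjusted p = 0.00158). It was also higher in V6.5 somatic cells than in ESCs (2.30, adjusted p = 0.000745). *Bcam*, a receptor for the *Lama5* chain, was lower in V6.5 iPGCs than in ESCs (-2.51, adjusted p = 0.00304).

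Genes for collagen modification, matrix proteases and their inhibitors were lower in iPGCs than in somatic cells in 17 of 18 cases in V6.5 and 16 of 18 in Oct4-Gfp. The 1 higher gene in both lines was *Timp1*, a protease inhibitor (1.06 in V6.5 and 1.19 in Oct4-Gfp), while *Timp2*, another of that family, was lower (-4.11 and -3.70). In V6.5 iPGCs against ESCs none of the 18 was higher and 5 were lower, a share called that is near the 30.1% of all genes. Among the 5 were *Timp1* (-1.82, adjusted p = 0.00523) and *Plod2*, a lysyl hydroxylase of collagen (-1.63, adjusted p = 0.000961). Between the iPGC groups of the 2 lines none of the 63 genes was called. Between Oct4-Gfp somatic cells and V6.5 somatic cells 2 were, *Postn* (-1.93, adjusted p = 0.036) and *Itga6* (1.25, adjusted p = 0.0462), which are named here after their values were seen.

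**Figure D4:**
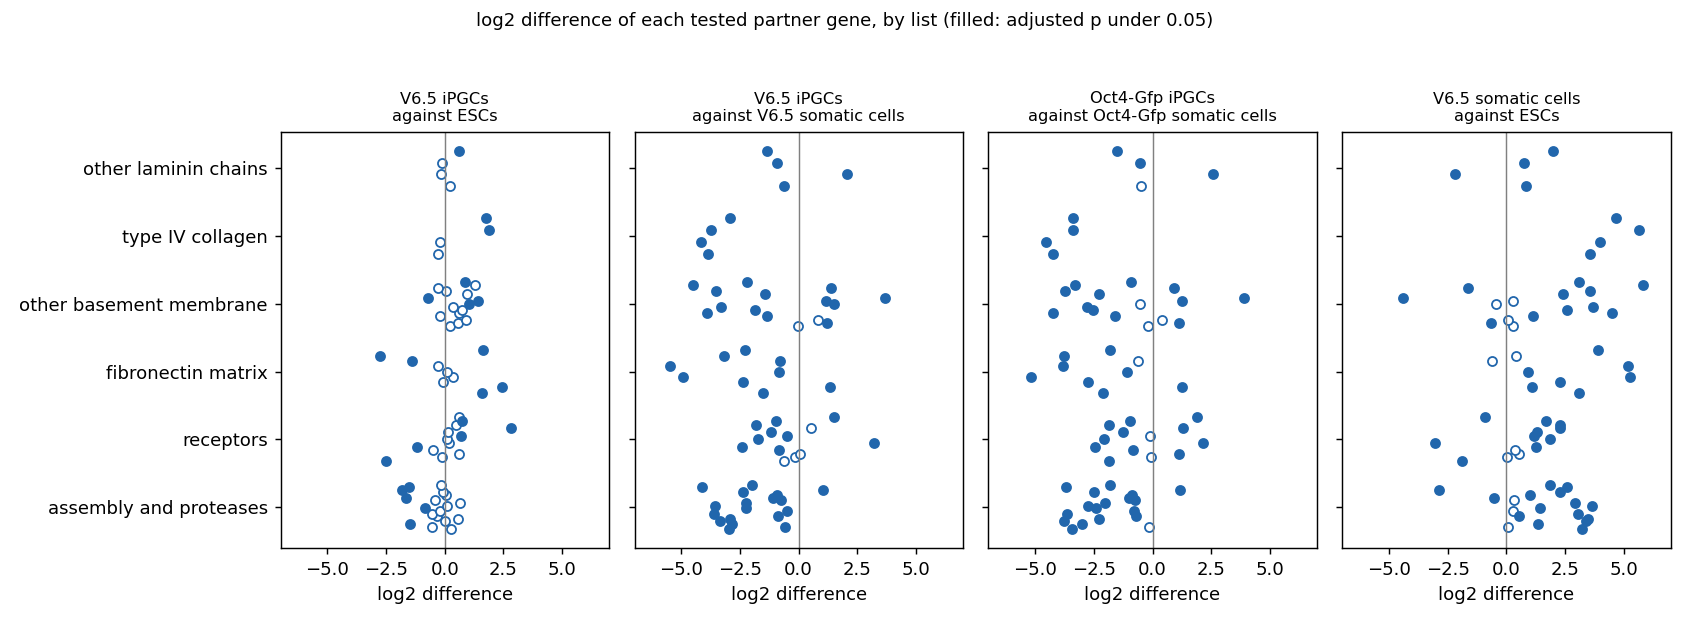
The log2 difference of each tested gene of the 6 lists in the 4 comparisons of cell types, the group named first over the group named second (filled: adjusted p under 0.05). All 4 type IV collagen genes lie left of zero in both comparisons of iPGCs with somatic cells and right of zero between V6.5 somatic cells and ESCs, and 17 (V6.5) and 16 (Oct4-Gfp) of the 18 assembly and protease genes are called lower in iPGCs than in somatic cells.

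The genes most alike to each member over the 10 arrays were found by Pearson's r of log2 values, which group means drive, since the arrays share 5 populations. *Lama4* followed *Cgrrf1* (r = 0.999) and *Dok4* (0.998), *Sparc* followed *Col5a1* (0.995) and *Rab13* (0.994), and *Nid2* followed *Rhox13* (0.992) and *Ndufaf4* (0.992). *Nid1* was closest to *Cibar1* (0.987) and *Actn1* (0.980), *Lamc1* to *Piezo1* (0.986) and *Itpripl1* (0.986), and *Hspg2* to *Tia1* (0.983) and *Dele1* (0.983). *Fn1* had *Tbc1d8b* (0.967) and *Nktr* (0.967) as its nearest genes, and *Lama5* had *Dusp3* (0.949) and *Clu* (0.940). For *Lama1* the highest values were 0.811 for *Zfp109* and 0.780 for *Tspan33*.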

How the data were processed

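Sorted cells were dissociated with trypsin, and their RNA was amplified with the Nu-GEN Ovation Pico system and hybridised to Affymetrix mouse genome arrays. The deposited file gives intensity, untransformed by any log, for which the submitters' processing notes name MAS5 without a version, whereas the paper's methods name D-Chip. Each array has a trimmed mean of 500.002 with 2% left out at each end, as a scaling by the authors would give. Amplification and the 3' bias of such arrays can change a probe set's signal, and the number of arrays limits the precision.

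From these intensities, 64 control probe sets were left out, log2 of the signal plus 14.8 (the 25th percentile of the table) was taken, and 26368 probe sets that exceeded the median of 2 or more arrays were kept. Means of 5 groups were modelled in limma 3.58.1 (R 4.3.3), the degrees of freedom being 5 residual and 2.92 prior, with Benjamini-Hochberg adjustment over the probe sets tested. Gene symbols came from the platform annotation, which names 1 symbol for 34958 probe sets, several for 932 and none for 9211. None of the 10 genes is found in a probe set with several. Background was the 95th percentile of 44 olfactory receptor probe sets on each array. A group with no array above it was given a fold as a bound against that level. No comparison columns of the authors were used. The script was also tested on simulated data.

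All 10 genes were named, and probe sets other than the brightest were given beside it. From each of 6 lists of related genes, up to 2 genes in each direction could be named in each comparison. They were those with the largest called change and arrays that do not overlap. Listed genes with no symbol of that name were looked up by RefSeq synonym or not analysed here. The 10 genes, the lists and the tests were chosen with earlier results of these data known. The results were recomputed with the offset doubled or replaced by a floor, without the filter or with it at 6 arrays, after quantile normalization or median centring, from the compared arrays alone, with limma-trend or array weights, with the replicate number as a block, with the *Gapdh* ratio as a covariate, with both lines averaged, with the mean over a gene's probe sets, at a threshold of 3-fold with unadjusted p under 0.01, and without each array in turn. Plots were drawn with matplotlib 3.10.9.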

Additional observations from a re-analysis of the deposited data

How the results depend on the processing

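The count of the 9 tested genes called in V6.5 iPGCs against ESCs, 3 as reported, was 1 with no filter on low values, with only the arrays compared, with array quality weights and with the *Gapdh* ratio as a covariate, 0 with the threshold of 3-fold and unadjusted p under 0.01, and 1 to 3 with each array left out. It was 1 without either ESC array, without V6.5 iPGC array 1 and without either V6.5 somatic array, and *Nid1* was called in all of these fits. That threshold left 2 of 7 genes in V6.5 iPGCs against V6.5 somatic cells, 3 of 7 in Oct4-Gfp iPGCs against Oct4-Gfp somatic cells and 1 of 6 in V6.5 somatic cells against ESCs. Most of the called differences were smaller than 3-fold. With each array left out the 3 counts lay between 4 and 7, 5 and 7, and 4 and 6. The 4 in V6.5 iPGCs against V6.5 somatic cells came without V6.5 somatic array 1, and the 4 in V6.5 somatic cells against ESCs without ESC array 2 or either V6.5 somatic array. The counts between lines and in the difference between lines stayed 0, with each array left out between 0 and 0. Over single genes, 1332 recomputed values kept their side of the threshold, 70 dropped below it, 13 passed it, and none reversed among called values.

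The replicate number as a block left 1 gene called in V6.5 iPGCs against ESCs. Equal numbers did not mark paired samples: over 10 pairs of groups the deviations of same-numbered arrays correlated between -0.29 and 0.26, above 0.1 in 2. The array signal gives no depth, and *Vtn* at background allows no comparison.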
